A study of Saccharomyces cerevisiae with 4 samples.

Results

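Messenger RNAs that came down with intact Whi3 were set against total RNA of the same cells on 2 of the 4 arrays of the series. The arrays were chosen by their label alone: both carry RNA of the Whi3-TAP strain, and no measured value entered the choice. On each array the immunoprecipitate was labelled with Cy3 and total RNA with Cy5, so every probe gives 1 log2 ratio of immunoprecipitate to total RNA per array. The other 2 arrays, of the same kind, hold Whi3-dRRM-TAP, the tagged protein without its RNA recognition motif (RRM), and are given beside the results only as the background measured in the same way.

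Both strains were haploid budding yeast of mating type MATa in the W303a background, a common laboratory background that carries mutant alleles of leu2, trp1, can1, ura3, ade2 and his3. In each, the TAP tag was placed at the chromosomal WHI3 gene with a KanMX4 marker, so that the tagged protein replaced the untagged one and no untagged Whi3 remained in either strain. Cells were grown in rich glucose medium to log phase, and the TAP tag was pulled down on IgG Sepharose. Each group had 2 biological replicates, 1 array each.

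Whi3 binds mRNA through its RRM and holds back Start, the commitment of a G1 cell to division, largely by restraining the G1 cyclin Cln3. Cells without Whi3 pass Start when small. Whi3 belongs to a family of RNA-binding proteins that recognise short motifs in many mRNAs, and it is also known for roles in the memory of past pheromone exposure and in the pathways of filamentous growth. In an experiment of this kind (RIP-chip) a high ratio says that an mRNA makes up more of the immunoprecipitate than of total RNA. It is set relative to the bulk of mRNA, since each array was centred, and gives no amount of bound RNA.

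A gene counted as above background in a channel where its mean signal minus local background exceeded 2 background SDs. Of the 5422 and 5605 genes with a value on Whi3-TAP arrays 1 and 2, 80.3% and 98.2% were above background in the immunoprecipitate, and 55.0% and 52.3% in total RNA. On the Whi3-dRRM-TAP arrays these shares were 16.4% and 55.2% in the immunoprecipitate and 25.5% and 53.5% in total RNA. The strain's label was checked against the genes that only cells of 1 mating type use: 5 of 7 a-specific genes were above background in total RNA on at least 1 Whi3-TAP array, but 0 of 4 alpha-specific genes and 0 of 8 genes of early meiosis were. STE2, which encodes the alpha-factor receptor of MATa cells, had log2 ratios of 1.99 and 1.78.

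The first question was which mRNAs lay above and which below total RNA when Whi3 was intact. Across 5389 genes the ratios of the 2 arrays correlated with Pearson r = 0.809 and Spearman rho = 0.787, and 80.0% of genes had the same sign on both, which describes the genes and not independent replicates. The limma test (adjusted p under 0.05) called 1031 genes above total RNA (19.1%) and 956 below it (17.7%), while 3402 were not called. All 1987 called genes had the same sign on both arrays, and the smallest mean ratio among them was 0.42 log2 units in size. A mean of at least 1 log2 unit was reached by 250 genes above and 149 below. Of the 1031 genes above, 447 were above background in total RNA on neither array, as were 2151 of all 5389 genes tested. The ratio of such genes is formed over a denominator at the limit of the scan. The dyes ran the same way on both arrays, so an effect of the dye on a gene stays in its ratio. With the authors' own processed ratios, whose median over all genes was 0.225, 69.7% of the called genes lay above, against 51.9% here and 48.2% with those ratios centred. With 1 Whi3-TAP array left out, the spread had to be taken from the Whi3-dRRM-TAP pair alone, on the assumption that the lone array varies like that pair. No gene passed by limma then (0 above and 0 below, either way), although 342 and 263 genes had an unadjusted p under 0.05 without array 2 and 338 and 271 without array 1, and with all 4 arrays in 1 fit 447 lay above and 384 below.

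**Figure D1:**
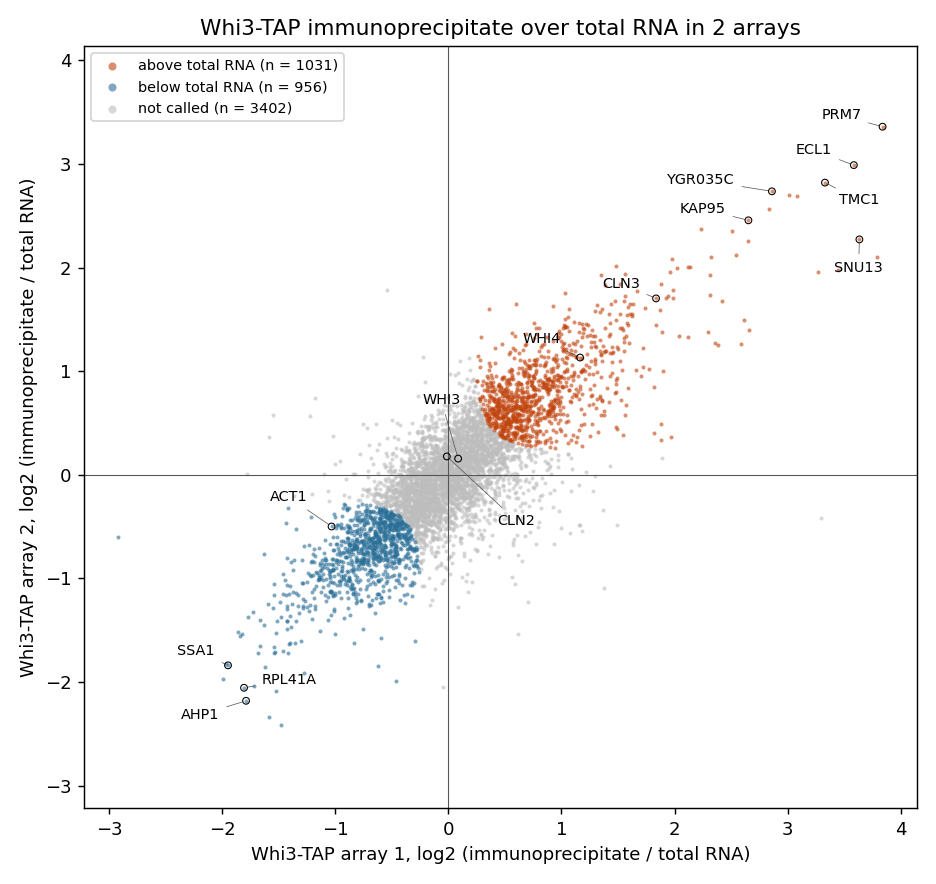
Mean log2 ratio of immunoprecipitate to total RNA of each gene on Whi3-TAP array 1 (horizontal axis) and array 2 (vertical axis), 1 point for each of 5389 genes, coloured by the limma call. All called genes have the same sign on both arrays, with PRM7, ECL1 and TMC1 at the upper right and SSA1, RPL41A and AHP1 at the lower left.

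The 12 mRNAs with the highest ratios did not belong to a single pathway. They were ranked by the lower of their array values, among open reading frames with at least 2 spots on each array and an immunoprecipitate above background on both. PRM7 (YDL039C), a gene named for its regulation by pheromone, led with log2 ratios of 3.84 and 3.36 on arrays 1 and 2, a mean of 3.60 ± 0.34 (SD, n = 2) or 12.1-fold (limma adjusted p = 0.000648). Its net intensity was 14298 and 48738 in the immunoprecipitate, against 1147 and 3542 in total RNA. The immunoprecipitate was thus brighter on both arrays, in spite of a difference in overall brightness between them. PRM7 was also above 0 in Whi3-dRRM-TAP, at 1.47 and 1.42.

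ECL1 (YGR146C), which lengthens chronological life span when overexpressed, had 3.59 and 2.99 (mean 3.29 ± 0.42), or 9.76-fold. Its net intensity was 16122 and 38214 in the immunoprecipitate, against 1610 and 3575 in total RNA. In Whi3-dRRM-TAP its ratios were near 0, at -0.02 and 0.14. TMC1 (YOR052C), which encodes an AN1-type zinc finger protein, had 3.33 and 2.82 (mean 3.08 ± 0.36), against 0.80 and 0.80 in Whi3-dRRM-TAP. KAP95 (YLR347C), which encodes importin beta, had 2.65 and 2.46 (mean 2.55 ± 0.14), or 5.88-fold, against -0.07 and 0.17 in Whi3-dRRM-TAP. The adjusted p of ECL1, TMC1 and KAP95 was 0.000648 by limma, the smallest value any gene reached.

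SNU13 (YEL026W), whose protein is shared by the spliceosome and the small nucleolar particles that mature ribosomal RNA, had 3.63 and 2.27 (mean 2.95 ± 0.96, adjusted p = 0.00222). Its immunoprecipitate spots on array 2 had 91% of their pixels saturated, so the lower of its values is limited by the scanner. On both Whi3-dRRM-TAP arrays SNU13 lay on the other side of 0, at -0.64 and -0.92. YGR035C, a gene of unknown function, had 2.86 and 2.74 (mean 2.80 ± 0.09), with total RNA above background on neither array. For such genes the fold is a lower bound, with the total RNA signal raised to 2 background SDs, and YGR035C was at least 6.75-fold higher in the immunoprecipitate. MTL1 (YGR023W), a membrane sensor of wall stress, was likewise at least 4.76-fold higher, with ratios of 2.65 and 2.25.

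Among the other 5 genes at the top, a pair belongs to pyrimidine salvage and another pair to cell cycle transcription and replication. FUR1 (YHR128W), encoding uracil phosphoribosyltransferase, had 2.24 and 2.37, and CDD1 (YLR245C), encoding cytidine deaminase, had 2.32 and 2.10. These salvage mRNAs parted in Whi3-dRRM-TAP, where FUR1 had -0.37 and -0.30 while CDD1 had 4.30 and 3.48, above its own values with intact Whi3. CDC6 (YJL194W), which loads the replicative helicase at origins, had 2.54 and 2.12, and NDD1 (YOR372C), an activator of the genes of mitotic entry, had 2.13 and 2.01. ISU1, a scaffold for iron-sulfur clusters, had 2.12 and 2.00. Over these 12 genes at the top, 5 were positive (41.7%) and 4 negative (33.3%) on both Whi3-dRRM-TAP arrays. These shares are near the 39.1% and 32.8% of all genes with values on both of those arrays.

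**Figure D2:**
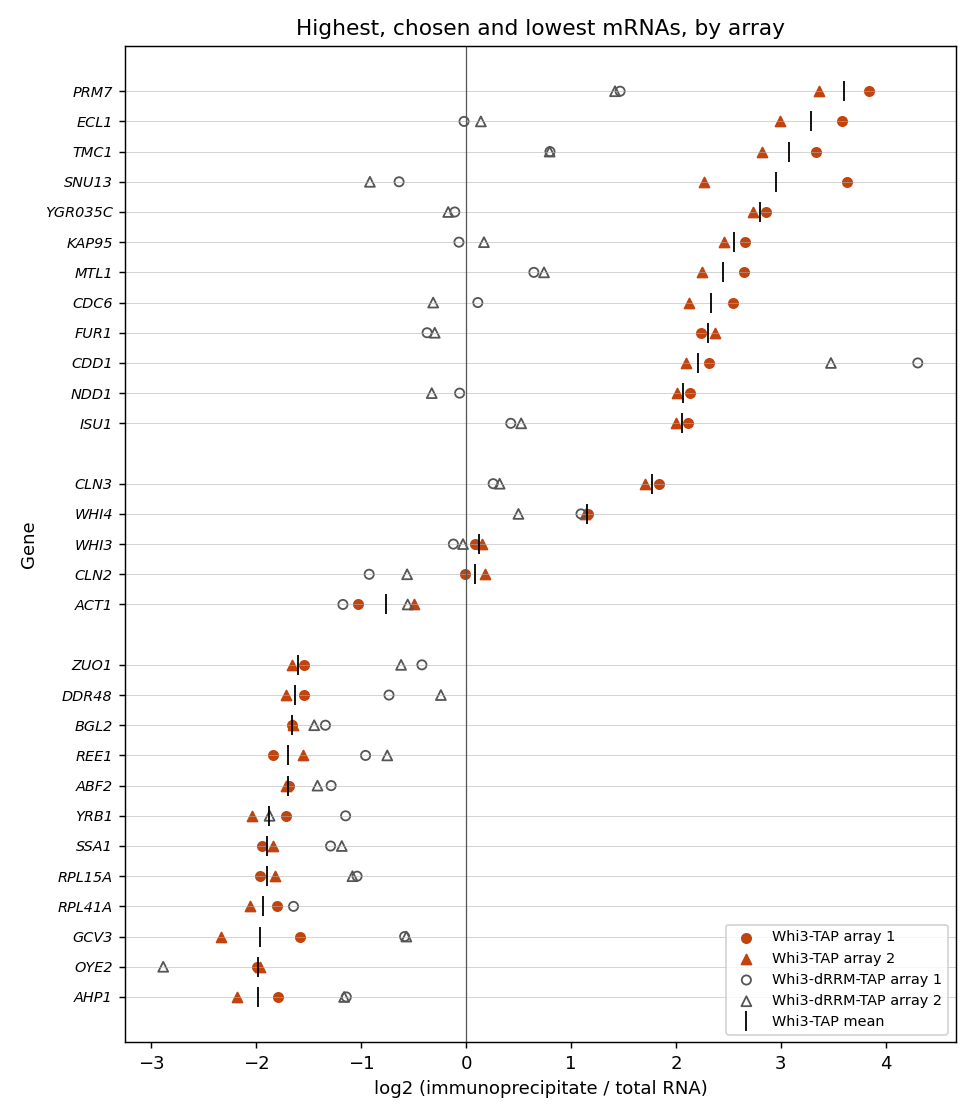
Log2 ratio of immunoprecipitate to total RNA of the 12 genes ranked highest and the 12 ranked lowest by the weaker of their array values and of 5 further genes (CLN3, WHI4, WHI3, CLN2, ACT1), with 1 point per array. Filled points are the 2 Whi3-TAP arrays and open points the Whi3-dRRM-TAP arrays with a value. The Whi3-TAP points of the genes at the top lie at 2.00 or higher, and PRM7, TMC1, MTL1, CDD1 and ISU1 are above 0 on all 4 arrays.

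CLN3 (YAL040C), the mRNA through which Whi3 is best known, ranked 37 of 5389. Its net intensity was 5373 and 17765 in the immunoprecipitate, against 1678 and 3787 in total RNA. The ratios were 1.84 and 1.70 (mean 1.77 ± 0.10, n = 2), or 3.41-fold (limma adjusted p = 0.00149), with values close to each other on the 2 arrays. In Whi3-dRRM-TAP CLN3 had 0.26 and 0.32. WHI4 (YDL224C), the paralog of WHI3, had 1.17 and 1.13 (mean 1.15 ± 0.02, adjusted p = 0.00281), with 1.09 and 0.50 in Whi3-dRRM-TAP. The mRNA of WHI3 itself had 0.09 and 0.16 and was not called (adjusted p = 0.497), and nor was CLN2, a later G1 cyclin, at -0.01 and 0.18 (adjusted p = 0.664). ACT1, which encodes actin, lay below total RNA at -1.03 and -0.50 (adjusted p = 0.0159), a call that was lost in the fit of all 4 arrays (adjusted p = 0.0688).

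CLN3 was not alone among the regulators of Start. Of 21 tested genes of Start and the G1 cyclins, 11 lay above total RNA (52.4%) and 0 below, with a median of 0.47. Among all genes tested 19.1% lay above and 17.7% below. In Whi3-dRRM-TAP the median of the same 21 genes was 0.06. PCL9, a cyclin partner of the kinase Pho85, had 1.52 and 1.10. MSA1, which acts with the G1 transcription factors SBF and MBF, had 1.02 and 1.42, with 0.50 and 0.40 in Whi3-dRRM-TAP. NRM1, a repressor of MBF targets, had 1.17 and 1.00, against -0.61 and -0.61 in Whi3-dRRM-TAP. SIC1, the inhibitor of B-type cyclin kinase, had 0.92 and 0.61, with 0.42 and 0.39 in Whi3-dRRM-TAP. Some factors were not called: SWI4 had -0.02 and -0.27, SWI6 -0.03 and -0.52, and WHI5 -0.50 and -0.09. STB1, which binds the G1 transcription factors, was called above at 0.59 and 0.52.

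The list of B-type cyclins and mitotic regulators had 12 of 24 genes above, 2 below and a median of 0.42. For the 22 with values in Whi3-dRRM-TAP the median was 0.06 there. CLB2 (YPR119W), the main mitotic cyclin, had 1.63 and 1.55 (mean 1.59 ± 0.05), and its paralog CLB1 had 1.08 and 0.87. In Whi3-dRRM-TAP CLB2 had 0.97 and 0.88. ASH1, whose mRNA travels to the daughter cell and whose protein represses mating-type switching there, had 1.07 and 1.60. MCM1, which binds DNA together with the forkhead factors at NDD1-dependent promoters, had 0.72 and 0.96. NDD1, given above, headed the list. The members below were ESP1, encoding separase, at -0.49 and -0.38, and PDS1, encoding its inhibitor securin, at -0.61 and -0.55. Total RNA of PDS1 was above background on neither array. With median centring neither ESP1 (-0.31, limma adjusted p = 0.128) nor PDS1 (-0.44, adjusted p = 0.052) was called, and nor was MCM1 (0.38, adjusted p = 0.114).

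Genes of DNA replication and nucleotide supply had 4 above (12.5%) and 6 below (18.8%) of 32, beside 19.1% and 17.7% of all genes tested. CDC6 stood at the top of this list. SML1, the inhibitor of ribonucleotide reductase, had 0.68 and 1.25, with -1.09 and -0.75 in Whi3-dRRM-TAP, and its call was lost with median centring (0.41, limma adjusted p = 0.178). DBF4, the activator of the kinase that fires origins, had 0.90 and 0.60, and was similar in Whi3-dRRM-TAP at 0.85 and 0.55. RFA3 and RFA1, which encode subunits of the single-strand binding protein, lay below, RFA3 at -1.08 and -0.86 and RFA1 at -0.65 and -0.65. RFA1 lost its call in the fit of all 4 arrays (adjusted p = 0.0579).

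Transporters of the plasma membrane were well represented above total RNA. Of 18 amino acid permeases, 10 lay above and 1 below, with a median of 0.61. The 17 with values in Whi3-dRRM-TAP had a median of -0.12 there. CAN1, the arginine permease, had 1.19 and 1.13, in a strain whose CAN1 gene carries a mutant allele. GNP1, a glutamine permease, had 1.04 and 1.21, against -0.36 and -0.49 in Whi3-dRRM-TAP. BAP3, a permease for branched-chain amino acids, had 1.04 and 1.14, and DIP5, a permease for glutamate and aspartate, had 0.93 and 1.00. The general permease GAP1 differed between the arrays, at 0.01 and -0.96, and was not called. With median centring GAP1 was called below, at -0.88 (limma adjusted p = 0.0221).

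Of 18 hexose transporters and sensors, 10 lay above and 0 below, with a median of 0.51, although only 6 of the 18 were above background in total RNA on any array. HXT1, the low-affinity transporter made at high glucose, had net intensities of 9220 and 21278 in the immunoprecipitate, against 2079 and 4439 in total RNA. Its ratios were 2.31 and 1.73 (mean 2.02 ± 0.41), or 4.06-fold, with 0.30 and 0.22 in Whi3-dRRM-TAP. HXT2 had 1.03 and 1.43, with 0.39 and 0.96 in Whi3-dRRM-TAP. HXT3, another low-affinity transporter and a close relative of HXT1, had 0.20 and -0.22 and was not called, while median centring called it below at -0.65 (limma adjusted p = 0.0211). Among the members above background in both channels on both arrays, the median was 0.07. The median of the 13 members with values in Whi3-dRRM-TAP was 0.49 there, close to that with intact Whi3. Transporters of drugs and polyamines were also among the mRNAs above: TPO1, a polyamine transporter, had 1.52 and 1.84, and SNQ2, a drug pump, had 1.18 and 1.45. In all, 7 of 19 genes of pleiotropic drug resistance lay above (36.8%) and 1 below (5.26%), beside 19.1% and 17.7% of all genes.

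Of the genes that sense and report on the cell wall, 10 of 20 lay above and 1 below, with a median of 0.45. Total RNA was above background on both arrays for 7 of the 20. The median of the 16 members with values in Whi3-dRRM-TAP was 0.52 there, no lower than with intact Whi3. The sensors MTL1 and MID2 are paralogs that signal to the kinase Pkc1. MID2 had 1.96 and 1.96, with 0.38 and 1.13 in Whi3-dRRM-TAP. A caution is that its open reading frame overlaps that of JIP3 and that the double-stranded probes do not tell the strands apart. RLM1, the transcription factor at the end of the same pathway, had 1.88 and 1.84, with 0.20 and 0.88 in Whi3-dRRM-TAP. The GTPase RHO1, which links sensors and kinase, was the member below, at -0.50 and -0.85, and PKC1 itself was not called at -0.40 and -0.04. MKK1, a kinase between Pkc1 and RLM1, was called above with 0.76 and 1.07, or at least 1.18-fold, as its total RNA was above background on neither array.

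Structural genes of the wall gave a mixed picture, with 20 of 66 above (30.3%) and 10 below (15.2%). Among all genes tested 19.1% lay above and 17.7% below. NCW1, a wall protein, had 2.04 and 1.34, against -0.85 and -0.89 in Whi3-dRRM-TAP, and its immunoprecipitate spots on array 2 had 87% of their pixels saturated. CHS3, the main chitin synthase, had 1.43 and 1.46, and DSE4, a glucanase that frees the daughter cell, had 1.57 and 1.34. Among the members below, BGL2, a glucanase, had -1.66 and -1.65, CWP1 had -1.18 and -1.10, and CCW14 had -1.28 and -0.69. These were below 0 in Whi3-dRRM-TAP as well, BGL2 at -1.34 and -1.45, CWP1 at -1.15 and -1.23, and CCW14 at -1.65 and -0.95. BGL2 was among the 12 genes ranked lowest of all.

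Glucose signalling had 11 of 33 genes above (33.3%) and 2 below (6.06%), beside 19.1% and 17.7% of all genes tested. Its median was 0.12. MIG2 (YGL209W), a repressor of genes that glucose turns off, had 2.31 and 1.93 (mean 2.12 ± 0.27), or 4.35-fold, with -0.53 and 0.23 in Whi3-dRRM-TAP. HAP4, the regulated activator of respiration genes, had 2.12 and 1.33. GPA2, the G protein that couples glucose to cAMP, had 1.63 and 1.65, against -0.87 and -0.25 in Whi3-dRRM-TAP, and RGS2, its negative regulator, was at least 2.68-fold higher with ratios of 2.38 and 1.25. The casein kinase YCK2 was below at -0.44 and -1.01. In the pheromone response, 8 of 27 genes lay above (29.6%) and 3 below (11.1%). DIG1, a repressor of pheromone-induced genes, had 0.93 and 1.03, and the kinase FUS3 had 0.66 and 0.53, though it was not called with median centring (0.35, limma adjusted p = 0.0973). GPA1, the G protein of this pathway, was below at -0.69 and -0.71.

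OLE1, the only fatty acid desaturase of the cell, had 2.62 and 1.49 (mean 2.05 ± 0.80), with saturated immunoprecipitate spots on array 2. The fatty acid synthase genes FAS1 and FAS2 lay below, with FAS1 at -0.57 and -0.82. Of 32 genes of sphingolipids and very long chain fatty acids, 9 lay above (28.1%) and 6 below (18.8%). IPT1, which makes the most complex sphingolipids, had 1.35 and 1.93, LCB1, a subunit of the first enzyme, had 1.34 and 1.57, and SUR1, which adds mannose to sphingolipids, had 1.43 and 1.36. TSC10, which acts right after LCB1, was below at -0.80 and -0.73. Among 29 sterol genes, 6 lay above (20.7%) and 5 below (17.2%), shares near those of all genes tested, with HMG1, an early reductase of the pathway, at 0.69 and 1.06 and ERG6, a late methyltransferase, at -1.13 and -1.13.

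Of 38 genes of RNA-binding proteins, 6 lay above (15.8%) and 8 below (21.1%), shares near the 19.1% and 17.7% of all genes tested. MPT5, a Puf protein that represses mRNAs, led it with 1.47 and 1.67, followed by WHI4 and by VTS1, which binds hairpins in mRNAs it marks for decay, with 1.02 and 1.21. NPL3, an export and splicing factor, lay below with -1.19 and -0.84. Of 48 genes of mRNA decay and P bodies, 8 lay above (16.7%) and 11 below (22.9%), likewise not far from the shares of all genes. DHH1, the helicase that activates decapping, had 1.21 and 1.45, against -0.38 and -0.33 in Whi3-dRRM-TAP. LSM7, a subunit of the ring that binds mRNA ends before decapping, had -0.89 and -1.19.

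Of 44 translation factors, 10 lay above (22.7%) and 14 below (31.8%), beside 19.1% and 17.7% of all genes tested. Their median was -0.22. ANB1, an isoform of eIF5A, had 1.30 and 1.34, and MBF1, a coactivator that is grouped here with the translation factors, had 1.03 and 1.75. HYP2, the homolog of ANB1, had 0.83 and -0.03 and was not called. The HYP2 spots had 88% and 84% of their pixels saturated in the immunoprecipitate and 35.5% and 71% in total RNA. A probe may read ANB1 and HYP2 in part together. RLI1, which recycles ribosomes, had 1.03 and 1.43. TIF35, a subunit of initiation factor eIF3, lay below with -1.46 and -1.15, as did TIF1, the helicase eIF4A, with -0.91 and -1.02. In Whi3-dRRM-TAP ANB1 had -1.36 and -1.09 and the mean of MBF1 was -0.81, so both were on the other side of 0 there.

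**Figure D3:**
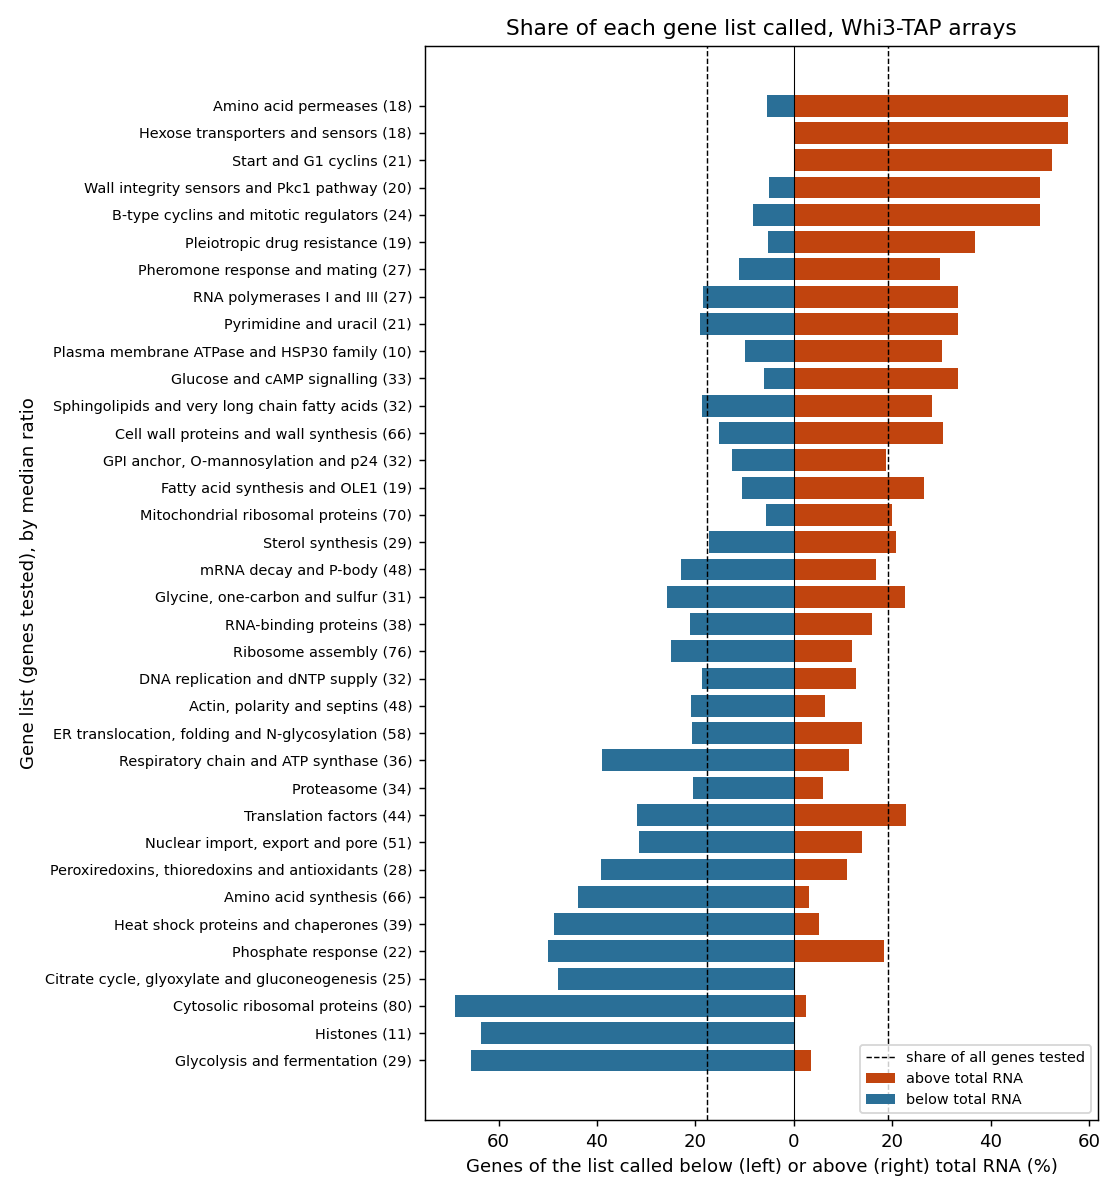
Percent of the tested genes of each list called above (to the right) and below total RNA (to the left) by limma, with the lists ordered by their median log2 ratio. The dashed lines mark the shares among all 5389 genes, 19.1% above and 17.7% below, and the marker lists and the list of targets chosen by the study on these arrays are left out. Transport, Start and wall integrity lists stand at the top and glycolysis, histones and ribosomal proteins at the bottom.

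The 12 mRNAs with the lowest ratios, ranked in the same way with total RNA above background on both arrays, came from several pathways. AHP1 (YLR109W), a peroxiredoxin, had the lowest mean of all genes, with -1.79 and -2.18 (mean -1.98 ± 0.28, limma adjusted p = 0.00149), a difference of 3.96-fold. Its net intensity was 2337 and 5287 in the immunoprecipitate, against 10539 and 17684 in total RNA, so its spots were dimmer in the immunoprecipitate on both arrays. SSA1 (YAL005C), a cytosolic chaperone of the Hsp70 family, had -1.95 and -1.84, and ZUO1, a cochaperone on the ribosome, had -1.54 and -1.66. GCV3, a subunit of glycine decarboxylase, had -1.59 and -2.34. OYE2, a flavin oxidoreductase, had -1.99 and -1.97, with the immunoprecipitate above background on 1 of the 2 arrays. YRB1, which binds the GTPase Ran in nuclear transport, had -1.72 and -2.04, and KAP95, of the same transport system, stood among the highest of all.

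The other genes at the bottom were RPL15A, RPL41A, ABF2, REE1, BGL2 and DDR48. RPL15A (YLR029C), a protein of the large ribosomal subunit, had -1.96 and -1.82, and its net intensity was 2206 and 8598 in the immunoprecipitate, against 11294 and 23147 in total RNA. ABF2, which packages mitochondrial DNA, had -1.68 and -1.72. REE1, linked to the regulation of enolase, had -1.84 and -1.55. Of these 12 lowest genes, 10 had a value on both Whi3-dRRM-TAP arrays, and all 10 were negative on both there as well, with a median of -1.11. Of all genes with values on both, 32.8% were negative on both.

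Glycolysis and fermentation had the lowest median of any list, -0.90, with 1 of 29 genes above and 19 below. The median of the 27 members with values in Whi3-dRRM-TAP was -0.85 there, close to that with intact Whi3. ENO1, an enolase, had -1.52 and -2.08, ADH1, the fermentative alcohol dehydrogenase, had -1.86 and -1.51, and FBA1, the aldolase, had -1.52 and -1.52. HXK2, the main hexokinase, had -1.30 and -1.60. The member above was TYE7, a transcription factor that turns on glycolytic genes, with 1.38 and 0.58. TYE7 had 1.93 and 1.75 in Whi3-dRRM-TAP, and its call was lost with median centring (0.49, limma adjusted p = 0.0913). The abundant TDH3, at 0.03 and -0.19, was not called, but its total RNA spots had 87.5% and 86% of their pixels saturated and its immunoprecipitate spots 24.5% and 85%, so the scanner limits both sides of its ratio. With median centring in place of loess TDH3 was called below, at -0.78 (limma adjusted p = 0.0101).

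Of 80 tested genes of cytosolic ribosomal proteins, 55 lay below and 2 above, with a median of -0.63, while the probes for the rest of the 137 genes of the list were not analysed here. In Whi3-dRRM-TAP the median of the 78 genes with values was similar, at -0.59. RPS30A had -1.73 and -1.33 and RPL29 had -1.48 and -1.37. The members above were RPS11A, at 0.76 and 0.84, and RPP2A, which encodes a protein of the ribosomal stalk, at 0.48 and 0.93. With median centring both lost their call, at 0.18 for RPS11A (limma adjusted p = 0.357) and 0.15 for RPP2A (adjusted p = 0.528), and the immunoprecipitate spots of RPS11A had 50.5% of their pixels saturated on array 2. RPS11A was negative in Whi3-dRRM-TAP, at -0.96 and -1.13. Mitochondrial ribosomal proteins did not follow the cytosolic ones, with 14 of 70 above (20.0%, near the 19.1% of all genes), 4 below (5.71%) and a median of 0.05. MRP17 had 1.35 and 1.16, with 1.05 and 1.35 in Whi3-dRRM-TAP, and MRPL35 had -0.97 and -1.02.

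Histone genes had 7 of 11 below and 0 above, with a median of -0.64. All 11 had values in Whi3-dRRM-TAP, with a lower median of -0.96 there. HTB1, encoding histone H2B, had -1.46 and -1.70, and its paralog HTB2 had -1.34 and -1.41. The genes of histone H4 were not called, with HHF2 at 0.47 and 0.31. Chaperones and heat shock proteins had 19 of 39 below and 2 above. The enzymes of amino acid synthesis had 29 of 66 below and 2 above, with a median of -0.32. In Whi3-dRRM-TAP the median of the 53 genes with values was -0.34. GDH1, which fixes ammonia into glutamate, had -1.53 and -1.71, and LEU1, an enzyme of leucine synthesis, had -1.18 and -1.29.

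The citrate cycle had 12 of 25 genes below and 0 above, with ACO1, the aconitase, at -1.35 and -1.62. ACO1 had -2.11 and -1.21 in Whi3-dRRM-TAP. The respiratory chain had 14 of 36 below (38.9%) and 4 above (11.1%). QCR9, a small subunit of the cytochrome bc1 complex, had 1.58 and 1.55, while CYC1, cytochrome c, had -1.33 and -1.26. In Whi3-dRRM-TAP QCR9 had 0.21 and -0.26 and CYC1 had -1.73 and -1.48. Of 22 genes of the phosphate response, 11 lay below (50.0%) and 4 above (18.2%), beside 17.7% and 19.1% of all genes tested. PHO84, the high-affinity phosphate transporter, had 1.72 and 1.22, against -0.27 and -0.44 in Whi3-dRRM-TAP. Its immunoprecipitate spots were saturated on array 2, and a non-coding RNA overlaps it in RefSeq. PHO8, the vacuolar phosphatase, had 1.45 and 1.18. The secreted phosphatase PHO5 had -0.84 and -1.62 and VTC4, which makes polyphosphate, had -1.39 and -1.47.

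**Figure D4:**
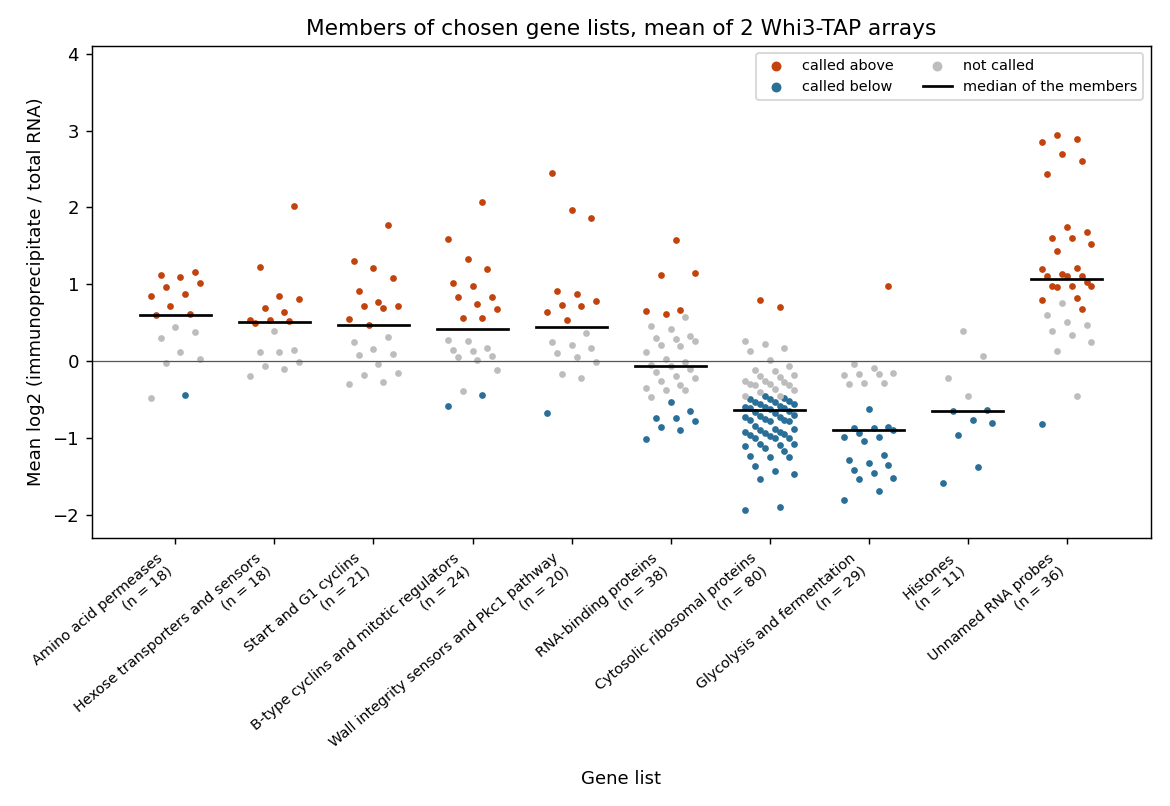
Mean log2 ratio of immunoprecipitate to total RNA over the 2 Whi3-TAP arrays for each tested member of chosen lists, 1 point per gene, coloured by the limma call. The list at the right is that of the unnamed RNA probes. Most points of Start and G1 cyclins and of amino acid permeases lie above 0, and most of glycolysis and of cytosolic ribosomal proteins lie below it.

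Some close relatives differed from each other. The pairs given here were chosen after their values were seen and so carry no test of the difference, and a probe may read both members of a pair in part. HXT1 exceeded HXT3 by 2.12 and 1.95 log2 units on arrays 1 and 2. MIG2 exceeded MIG1, its fellow glucose repressor, by 1.76 and 1.78. ELO2, which elongates fatty acids to very long chains, had 1.32 and 1.64, against -0.44 and -0.48 for ELO1, so that 1 lay above and 1 below. The stalk genes were split likewise, with RPP2A above and RPP2B below at -0.90 and -0.34. MRH1, a membrane protein related to Hsp30, had 1.56 and 1.28, against 0.19 and -0.45 for YRO2. SAM1, which makes S-adenosylmethionine, had 0.66 and 0.97 and was called above, against -0.51 and -0.22 for its isozyme gene SAM2, which was not called. With median centring it was SAM2 that was called, below at -0.87 (limma adjusted p = 0.0123), while SAM1 was not, at 0.36 (adjusted p = 0.142). WHI4 exceeded WHI3 by 1.08 and 0.98. Other pairs kept together, among them MTL1 with MID2, SSA1 with SSA2 and HTB1 with HTB2.

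Some probes of the same kind read RNAs other than mRNA. Of 36 probes for RNAs that carry no gene name in the array's annotation, 26 lay above total RNA and 1 below, with a median of 1.07, and 19 were above background in total RNA on at least 1 array. Another 3 probes read known non-coding RNAs, and all 3 lay above. LSR1, the U2 RNA of the spliceosome, had 1.26 and 1.10, against 2.51 and 2.85 in Whi3-dRRM-TAP. SNR13, a small nucleolar RNA, was at least 1.01-fold higher, with total RNA above background on neither array and the immunoprecipitate on 1. TLC1, the telomerase RNA, had 0.79 and 0.31, and lost its call with median centring (0.37, limma adjusted p = 0.122). Of the 34 unnamed probes with values in Whi3-dRRM-TAP, 32 were higher there, where their median was 2.40. Among 5247 open reading frames in RefSeq, 979 lay above and 944 below.

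The share of genes below total RNA grew with the total RNA signal of the gene. As a measure of abundance that is not the denominator itself, the total RNA channel of Whi3-dRRM-TAP array 2 was used. It was read with the same probes and dye as the denominator. An effect of probe or dye on a gene can therefore enter both, and its part was not tested. Genes were cut into 5 groups of equal size by this intensity. From the lowest group to the highest, the share below was 7.74%, 12.3%, 16.1%, 20.9% and 32.2%, a rise at every step. The share above was 20.3%, 18.9%, 19.2%, 17.6% and 18.2%. With abundance from Whi3-dRRM-TAP array 1 the share above was 21.5%, 21.0%, 20.8%, 19.1% and 16.6%, lower at every step, and the share below 9.88%, 12.1%, 14.9%, 21.7% and 32.8%. Spearman's rho between abundance and the mean ratio was -0.18 over 5229 genes that share the same arrays, and -0.17 over 4297 genes with Whi3-dRRM-TAP array 1 instead. The share of genes above background in total RNA on both Whi3-TAP arrays was 0.19% in the lowest group and 99.2% in the highest, and its part in this order was not tested. Gene length gave no steady order, with rho = 0.04 over 5247 genes.

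**Figure D5:**
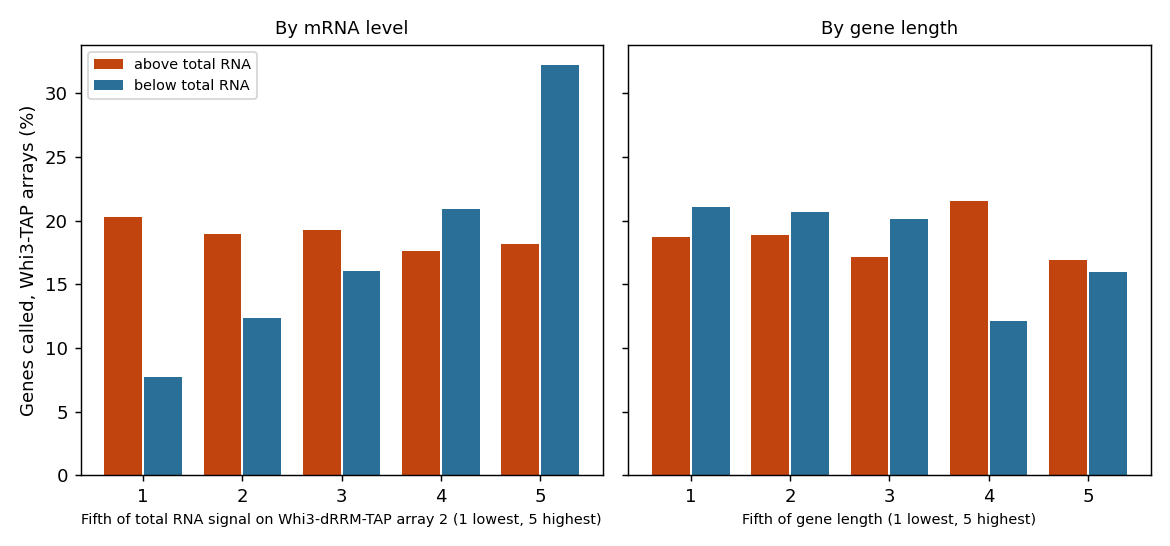
Percent of genes called above and below total RNA in 5 groups of equal size by total RNA intensity on Whi3-dRRM-TAP array 2 and by gene length, from the lowest group at the left to the highest at the right. The share below grows with intensity from 7.74% to 32.2%, while the share above stays between 17.6% and 20.3%.

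Probes for the 3′ untranslated regions, which were kept out of the calls, gave a second reading of 241 genes with different spots of the same arrays. Of 39 genes called above from their coding probes, 27 were positive on both arrays with the 3′ probe and 6 negative on both, with a median of 0.54. Of 74 called below, 58 were negative on both and 4 positive on both, with a median of -0.74. Among all 241 genes, 72 were positive on both and 113 negative on both. HXT1 had 1.30 and 1.04 and CAN1 had 1.72 and 1.08 with their 3′ probes, and SSA1 had -1.34 and -2.11. MRH1 had 2.60 and 1.75 and SAM1 had 2.37 and 1.59. The 3′ probes placed these 5 genes on the same side as the coding probes did, but they were picked after their values were seen and do not measure agreement. Other genes differed: PHO3, called below, had a 3′ mean of 0.53, and HXT14 and HXT17, called above, had -0.56 and -0.74.

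The Whi3-dRRM-TAP arrays show how much of this was present without the RRM. Of 871 genes above total RNA with values on both of those arrays, 56.4% were positive on both of them, beside 39.1% of all genes with values. Of 781 genes below, 65.9% were negative on both, beside 32.8% of all. The median ratio in Whi3-dRRM-TAP was 0.27 for the genes above and -0.39 for those below, against 0.74 and -0.71 for the same genes in Whi3-TAP. How far the weaker signal entered these medians, and whether a given ratio depended on the RRM, was not tested here. Of 257 tested mRNAs that the study had tabulated as Whi3 targets, a list chosen on these same arrays and so not independent of them, 199 lay above total RNA and 1 below.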

How the data were processed

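RNA of the immunoprecipitate (Cy3) and total RNA (Cy5) were reverse transcribed by the authors from oligo-dT, labelled and hybridised to home-made arrays of spotted double-stranded probes, which were read with a GenePix scanner. The deposited scanner tables hold the foreground and background intensity of each spot, not yet normalized. Their deposited log2 ratio runs total RNA over immunoprecipitate and was used only to check the orientation. Per the file headers, saturation is the percent of a spot's pixels at the scanner's limit. The deposited series matrix holds the authors' log2 ratio per probe after background subtraction, loess and averaging of spots. Set against the scanner values (r = 0.898 and 0.949 on the Whi3-TAP arrays), it runs immunoprecipitate over total RNA and is not centred, with medians of 0.247 and 0.222. It served as an alternative.

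Spots with a negative flag were left out, which kept 25277 (79.8%) and 27402 (86.5%) of 31688 yeast spots on Whi3-TAP arrays 1 and 2. Mean intensity was corrected by normexp with the median local background and an offset of 50, log2 ratios were normalized by loess within each array (span 0.3), and spots of a probe were averaged (median 4 per gene). Of 5738 gene probes, 5389 had a value on both arrays and 249 on 1. The mean of the 2 arrays was tested against 0 across all genes with lmFit and eBayes of limma 3.58.1 in R 4.3.3, 2-sided, with Benjamini-Hochberg adjustment at 0.05 (1 residual and 5.32 prior degrees of freedom). Such p-values measure the spread between these 2 arrays only. The script was tested on simulated data. A channel counted as saturated in a gene from 50% of pixels. Lower bounds of folds carry the same offset and loess shift as the ratios.

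The named genes are the 12 highest and 12 lowest open reading frames by the smaller in size of their array ratios, with the same sign on both arrays, at least 2 spots on each and the brighter channel above background on both. CLN3, WHI4, WHI3, CLN2 and ACT1 and up to 4 called members each way of every list were added. Other genes are named as examples chosen after their values were seen. The genes and lists were chosen with earlier results of these data known. Symbols came from RefSeq (assembly R64) by systematic name. The arrays' annotation names no build, so no positions are given, and paralogs that a probe may read together are uncertain. Figures were drawn with matplotlib 3.10.9.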

Additional observations from a re-analysis of the deposited data

Results flagged for a closer look

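Of the genes named above, 28 had ratios of 1 sign on both Whi3-TAP arrays and of the other sign on both Whi3-dRRM-TAP arrays, and are given here with their mean log2 ratio in each strain. The difference between the strains was not tested. A sign is relative to the centre of each array. The authors' uncentred ratios had medians of 1.08 and 0.52 on the Whi3-dRRM-TAP arrays, against 0.247 and 0.222 on the Whi3-TAP arrays. In Whi3-dRRM-TAP the immunoprecipitate was above background for 16.4% and 55.2% of genes, and some of the means given here lie near 0. The share of all genes tested with such a change of sign was not counted, so the number does not say how common it was.

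Among the genes ranked highest, SNU13 had a mean of 2.95 in Whi3-TAP and -0.78 in Whi3-dRRM-TAP, YGR035C 2.80 and -0.14, FUR1 2.30 and -0.34, and NDD1 2.07 and -0.19. Among genes of the cell cycle and of signalling, NRM1 had a mean of 1.09 in Whi3-TAP and -0.61 in Whi3-dRRM-TAP, SML1 0.96 and -0.92, GPA2 1.64 and -0.56, and FUS3 0.59 and -0.26. Among membrane transporters and their kin, GNP1 had a mean of 1.13 in Whi3-TAP and -0.43 in Whi3-dRRM-TAP, DIP5 0.96 and -0.18, PHO84 1.47 and -0.35, and MRH1 1.42 and -0.39. Among genes of lipids, wall and phosphatases, ELO2 had a mean of 1.48 in Whi3-TAP and -0.45 in Whi3-dRRM-TAP, IPT1 1.64 and -0.09, LCB1 1.46 and -0.39, NCW1 1.69 and -0.87, and PHO8 1.31 and -0.39. Among genes of translation, mRNA decay and methyl metabolism, ANB1 had a mean of 1.32 in Whi3-TAP and -1.23 in Whi3-dRRM-TAP, MBF1 1.39 and -0.81, RLI1 1.23 and -0.16, RPS11A 0.80 and -1.05, DHH1 1.33 and -0.36, and SAM1 0.81 and -0.93. These 23 genes were called above total RNA in Whi3-TAP, although SML1, FUS3, RPS11A and SAM1 were not with median centring.

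The other 5 were not called above. WHI3 itself had 0.12 in Whi3-TAP and -0.08 in Whi3-dRRM-TAP. The histone gene HHF2 had 0.39 and -0.64. The order was turned for SWI4, at -0.15 in Whi3-TAP and 0.10 in Whi3-dRRM-TAP, for SWI6, at -0.27 and 0.31, and for YCK2, at -0.73 and 0.45, of which YCK2 was called below total RNA in Whi3-TAP.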

How the results depend on the processing

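Precision was limited by 2 arrays, by the 2151 genes whose total RNA was above background on neither array, and by saturation. No gene was called on the other side under any setting run, and the 24 highest and lowest genes kept their calls wherever they were tested, except with 1 array left out. The counts were 1031 above and 956 below. They were 617 above and 846 below (of 2646 tested) with both channels above background, so that more genes lay below than above, 1579 above and 685 below with the authors' series matrix, and 447 above and 384 below with all 4 arrays in 1 fit, where 4295 genes have values. Without either Whi3-TAP array, where the spread comes from the Whi3-dRRM-TAP pair, both counts were 0 to 0, with a smallest adjusted p of 0.253 without array 1 and 0.0563 without array 2 by limma. Under the remaining settings, apart from the replicate block given next, the count above was 1013 to 1167 and the count below 944 to 1122. The centred series matrix was added after seeing the data.

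The replicate numbers of the strains are shared, but the labels do not say that a number marks a pair, and the deviations of same-numbered arrays correlated with r = 0.218 over 4295 genes. With the replicate block, 408 genes lay above and 353 below.

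Of the genes described above, beside the calls given there as lost with median centring, the fit of all 4 arrays with no block lost those of ACT1, RFA1, PDS1, YCK2, FAS2, ELO1, RPP2B, STB1 and TLC1. The block lost the same ones except ACT1, and those of RPP2A, RHO1 and FUS3. The series matrix lost RPS11A, RPP2A and ELO1, and its centred values SML1, RPS11A, RPP2A, FUS3, MCM1, SAM1 and TLC1. All spots kept lost RPP2A, FAS2 and FUS3, and print-tip loess RPP2A and FAS2. GAP1, HXT3, SAM2 and TDH3 were called below with median centring and with the series matrix, centred or not.

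Means that changed sign, with no call on the new side and the cause not tested, are given here to 3 digits. With median centring, CLN2 had -0.0703, QCR7 -0.0155, SWI4 0.00714 and HHF2 -0.256. With the series matrix as deposited, HHF2 had -0.0449, PKC1 0.0670, MCM2 0.365, SWI4 0.497 and WHI5 0.380. With that matrix centred, CLN2 had -0.0939, QCR7 -0.0374, HHF2 -0.279, MCM2 0.130, SWI4 0.263 and WHI5 0.146. AST1 had 0.00448 with all spots kept. HXT3 had 0.00681 with no background correction, 0.240 with print-tip loess and 0.0641 with saturated spots left out, and TDH3 had 0.0861 with print-tip loess. Without arrays 1 and 2, in that order, CLN2 had 0.177 and -0.0126, GAP1 -0.960 and 0.0115, HXT3 -0.216 and 0.197, TDH3 -0.195 and 0.0330, and YRO2 -0.451 and 0.191.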
